A study of Mus musculus with 24 samples.

Results

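The Notch genes examined were the receptors Notch1, Notch2 and Notch3, the ligands Dll1, Dll3 and Jag1, and the target genes Hes1, Hes5, Hey1 and Hey2, 10 genes of the 55416 rows in the count table. Rows were taken by gene symbol, all 10 symbols were found, and all 10 were among the 17736 genes with enough counts to be tested. The genes were chosen by results of the Ethanol against Control comparison that were already known, so their differences between the groups are given as a description of these animals and not as an independent test.

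Ethanol animals (n = 12) were C57BL/6J neonates dosed by gavage from P4 on with ethanol at 4 g/kg/day, carried in 20% intralipid, a mouse model of exposure during the last trimester of human pregnancy. Control animals (n = 12) were C57BL/6J neonates of the same ages given intralipid in which water replaced the ethanol. Poly(A) RNA was sequenced from the cerebellum of each animal at P5 or P6, 24 hours after its last dose. Each label names a treatment and an animal number (X4568, for example) without age, sex or litter, so both ages and both sexes are pooled in each group. By the methods of the paper each of the 6 litters sampled gave animals to both groups, but the labels do not tell which animals shared a litter. Perfused, microdissected cerebellum is a mixture of cell types, and every level below is that of the whole tissue.

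Notch receptors are cleaved when a ligand on a neighbouring cell binds them, and the freed intracellular part enters the nucleus, where it joins the DNA-binding protein RBPJ and a Mastermind coactivator to switch on genes of the HES and HEY families. HES and HEY proteins are repressors that hold down proneural transcription factors, and this keeps neural progenitors and glial cells from becoming neurons. In the young cerebellum the pathway is known for its activity in Bergmann glia, in progenitors of the white matter and rhombic lip, in granule cell precursors and in the walls of blood vessels.

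Hes5 differed most between the groups. Its level was 1.71-fold higher in Ethanol than in Control cerebella, and 11 of 12 Ethanol animals lay above the highest Control animal. The ligand genes Dll1 and Jag1 rose by a log2 fold change of 0.17 and 0.15, and the receptor genes Notch2 and Notch3 fell by 0.18 and 0.14 on the log2 scale. Notch1, Dll3, Hes1, Hey1 and Hey2 did not pass the test. In counts, 3 of 10 genes passed as higher and 2 as lower, and 5 did not pass, at a Benjamini-Hochberg adjusted p under 0.05 over all genes (edgeR quasi-likelihood test). Over all genes tested the same threshold called 14.9%, with 9.07% higher and 5.8% lower, and since this contrast chose the genes nothing is read from the difference in shares. Of all genes called, 61% were higher, against 49.6% with upper-quartile scaling, which changed the call of none of the 10 genes. The median log2 fold change of the 10 genes was 0.04, against -0.01 over all genes tested.

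**Figure D1:**
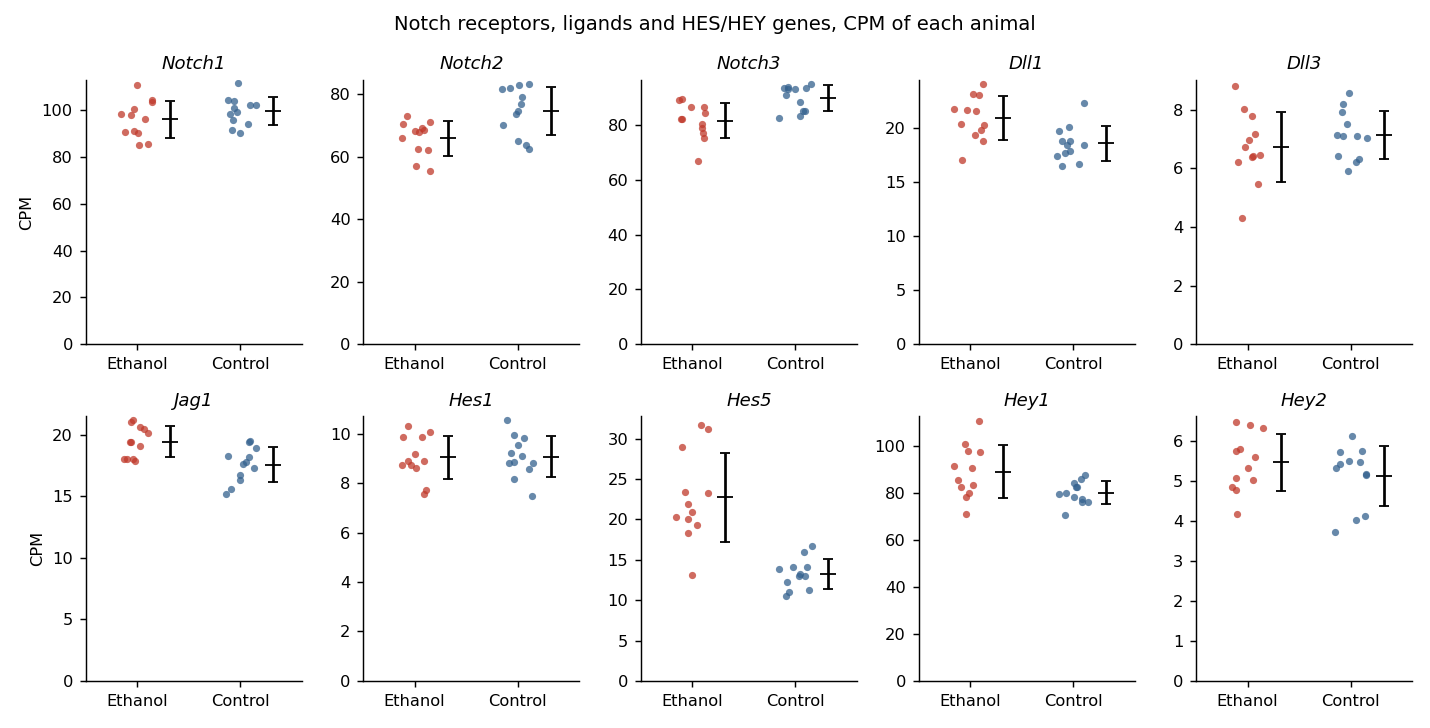
CPM (y axis from 0) of each of the 10 genes, 1 panel per gene, with Ethanol animals in red on the left and Control animals in blue on the right. Each point is an animal, and the black mark and bar beside the points give the mean and SD of 12 animals. The Ethanol points of Hes5 lie above all Control points except for 1 animal at 13.1 CPM, whereas the points of Hes1 cover the same range in both groups.

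Libraries held 26982564 to 38804942 estimated counts in Ethanol and 29039888 to 38696615 in Control animals, and the genes had between 117 (Dll3) and 3996 (Notch1) estimated counts in each library. Levels are in CPM, a gene's estimated count relative to the TMM-scaled total of its library. In numerical order the animal numbers form 6 runs of 4 animals with 2 Ethanol and 2 Control animals each, and values within a run are used as a check that does not depend on differences between runs. Markers of the forebrain were near 0, with at most 4 estimated counts of Emx1, 5 of Dlx2 and 5 of Dlx5 in any library. Ttr, the choroid plexus transcript, was below a log2 CPM of 4 in 4 libraries (Ethanol X4766 and X4568, Control X4770 and X4761), while the summed level of 10 choroid plexus markers ranged over 51.3 to 5407 CPM in Ethanol and 37.0 to 5410 CPM in Control libraries. Calls of the 10 genes that are lost without these 4 libraries are given with both values, as are some of those of other pathway genes. For genes outside the pathway, cell type markers among them, calls without these 4 libraries are not given. Over all genes tested, 1206 were called higher and 612 lower without them, against 1608 and 1028 with all 24 libraries.

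Among the receptors, Notch1 is the receptor best known from neural progenitors. Notch1 had 85.0, 97.0 and 111 CPM in Ethanol animals (lowest, median and highest) and 90.01, 100.04 and 112 CPM in Control animals. The groups overlapped over nearly their whole range, with 2 Ethanol animals below the lowest Control animal. The log2 fold change was -0.05 (SE 0.04, edgeR adjusted p = 0.448), and the mean was lower in the Ethanol animals of 5 of 6 runs.

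Notch2 is the receptor of Bergmann glia and of granule cell precursors. Notch2 had 55.3, 68.2 and 73.1 CPM in Ethanol animals and 62.6, 75.8 and 83.3 CPM in Control animals (lowest, median and highest). All 12 Ethanol animals lay below the Control median and 8 Control animals lay above the highest Ethanol animal, while the lowest 4 Control animals fell within the Ethanol range. Its log2 fold change was -0.18 (SE 0.05, edgeR adjusted p = 0.0236). The difference was in the same direction in 6 of 6 runs but uneven, between -0.41 in run 1 and less than 0.01 below zero in run 5. Notch2 passed the threshold in 38 of 42 other settings (scaling, test, filter, covariates, overlapping genes summed, and animals or runs left out), and it did not pass without run 1 (adjusted p = 0.138), without runs 3 or 4, or with no filter on low counts (adjusted p = 0.0581).

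Notch3 is the receptor of pericytes and vascular smooth muscle cells. Notch3 had 67.0, 82.3 and 89.4 CPM in Ethanol animals and 82.4, 92.0 and 95.1 CPM in Control animals (lowest, median and highest). The groups overlapped in part: 7 Ethanol animals lay below the lowest Control animal and 7 Control animals lay above the highest Ethanol animal. Ethanol over Control, the log2 fold change was -0.14 (SE 0.04, edgeR adjusted p = 0.0147), with lower means in 6 of 6 runs, and Notch3 passed the threshold in 42 of 42 other settings with a highest adjusted p of 0.0457.

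Some markers of the vessel wall and of glia also passed the test, in part in opposite directions. Of 10 pericyte and smooth muscle markers, 2 were lower (Rgs5 and Acta2) and 0 were higher, and their summed level ranged over 342 to 421 CPM in Ethanol and 403 to 452 CPM in Control animals. At an unadjusted p under 0.05, 3 of these markers were lower and 0 higher. Of 10 endothelial markers, 5 were lower (Eng, Cdh5, Tek, Pecam1 and Kdr) and 1 was higher (Ly6c1), with a summed level of 352 to 419 CPM in Ethanol and 404 to 470 CPM in Control animals. Of 12 astrocyte and Bergmann glia markers, 4 were higher (Gfap, Sox9, Slc1a2 and Aqp4) and 2 were lower (Gdf10 and Hopx), with a summed level of 4888 to 5385 CPM in Ethanol and 4487 to 5216 CPM in Control animals. No marker of these lists was at 0. The shares called were 20% of the pericyte and smooth muscle, 60% of the endothelial and 50% of the astrocyte and Bergmann glia markers. Over all genes tested the share was 14.9%, with 9.07% higher and 5.8% lower. Their part in the receptor differences was not tested, and in RNA of whole tissue fewer cells of a type and less RNA per cell cannot be told apart.

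Among the ligands, Dll1 is the Delta ligand carried by newborn neurons and committed progenitors. Dll1 had 17.0, 20.9 and 24.1 CPM in Ethanol animals and 16.5, 18.4 and 22.3 CPM in Control animals (lowest, median and highest). The ranges overlapped widely, yet 11 of the 12 Ethanol animals exceeded the Control median and the mean was higher in 6 of 6 runs. On the log2 scale the fold change was 0.17 (SE 0.05, edgeR adjusted p = 0.0273). Dll1 passed in 32 of 42 other settings, and without the 4 libraries low in Ttr its adjusted p was 0.0982.

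Jag1 is the Serrate-type ligand known from Bergmann glia and vessels. Jag1 had 17.8, 19.4 and 21.2 CPM in Ethanol animals and 15.2, 17.7 and 19.5 CPM in Control animals (lowest, median and highest). All 12 Ethanol animals exceeded the Control median, 5 of them above the highest Control animal, and 7 Control animals lay below the lowest Ethanol animal. The log2 fold change was 0.15 (SE 0.04, edgeR adjusted p = 0.0243), with higher means in 6 of 6 runs. Jag1 passed in 35 of 42 other settings and had an adjusted p of 0.0834 without the 4 libraries low in Ttr. Leaving out Ethanol X4568, Ethanol X4569 or Control X4762 alone was enough to end the call of both Dll1 and Jag1, and leaving out Control X4695 or Control X4697 ended that of Dll1.

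Dll3 is a divergent Delta protein that is known to act inside the cell as an inhibitor of the pathway rather than to activate receptors on its neighbours. Dll3 had 4.29, 6.59 and 8.80 CPM in Ethanol animals and 5.92, 7.09 and 8.56 CPM in Control animals (lowest, median and highest). The Ethanol range enclosed the Control range on both sides. Its log2 fold change was -0.08 (SE 0.08, edgeR adjusted p = 0.581), and the direction was split over the runs, lower in 4 and higher in 2.

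The target genes did not move as a group. Hes5 encodes a repressor of proneural genes that is a direct target of the Notch intracellular part in neural stem cells and glia. Hes5 had 13.1, 21.4 and 31.7 CPM in Ethanol animals and 10.6, 13.1 and 16.7 CPM in Control animals (lowest, median and highest), with means of 22.7 ± 5.501 CPM in Ethanol and 13.3 ± 1.87 CPM in Control animals (SD, n = 12 each). Only Ethanol X4760, the library of lowest total count, lay within the Control range. Ethanol over Control, the log2 fold change was 0.78 (SE 0.11, edgeR adjusted p = 7.96e-05). The threshold was passed in 42 of 42 other settings, with a log2 fold change between 0.69 and 0.86 and a highest adjusted p of 0.00128.

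The size of the Hes5 difference varied over the runs. In run 2 the Ethanol animals had 31.7 and 18.3 CPM, against 10.6 and 11.2 CPM in the Control animals. In run 6 they had 31.2 and 23.4 CPM, against 13.0 and 13.2 CPM in Control. In run 5, which holds Ethanol X4760, the Ethanol animals had 20.2 and 13.1 CPM, against 14.1 and 13.0 CPM in the Control animals. The mean log2 difference of Hes5 ranged from 0.27 in run 5 to 1.14 in run 2 and was positive in 6 of 6 runs. Ethanol animals also differed more from each other, with a coefficient of variation of 24.2% in Ethanol and 14.1% in Control animals, and this difference in spread was not tested.

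**Figure D2:**
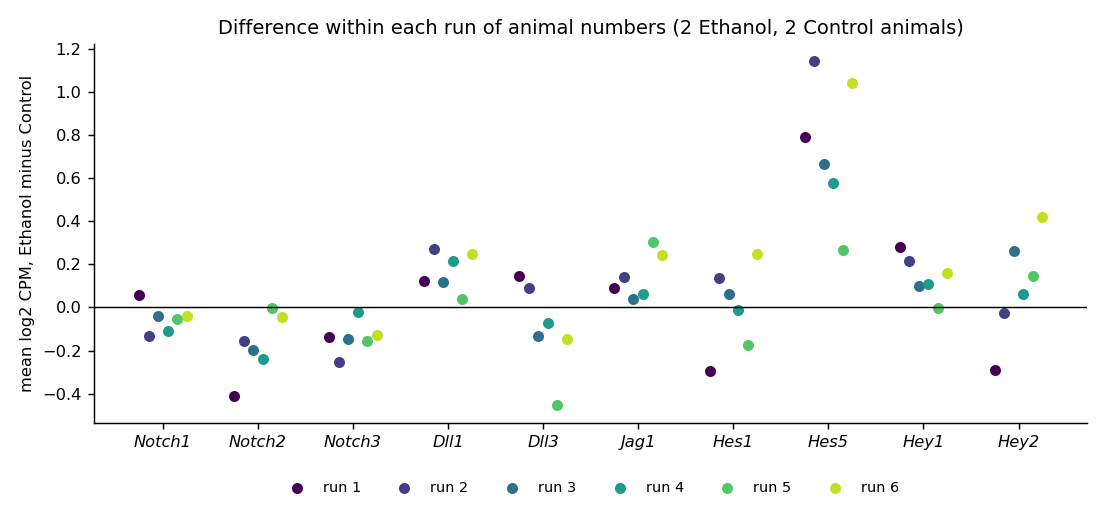
Difference in mean log2 CPM, Ethanol minus Control, within each of the 6 runs of animal numbers, with 1 column of points per gene and 1 colour per run, and the line marks 0. Each point compares 2 Ethanol with 2 Control animals. All 6 points of Hes5, Dll1 and Jag1 lie above 0 and all 6 points of Notch2 and Notch3 lie below it, whereas those of Hes1, Hey2 and Dll3 lie on both sides.

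Hes1 is the broadly expressed relative of Hes5 that can stand in for it in mouse progenitors. Hes1 had 7.56, 8.90 and 10.3 CPM in Ethanol animals and 7.49, 8.99 and 10.5 CPM in Control animals (lowest, median and highest). The groups covered the same range. On the log2 scale the fold change was -0.01 (SE 0.06, edgeR adjusted p = 0.964), and its sign changed in 11 other settings without passing in any of them.

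Hey1 is a HEY family repressor expressed in progenitors, Bergmann glia and endothelium. Hey1 had 70.7, 87.9 and 110.4 CPM in Ethanol animals and 70.6, 79.7 and 87.4 CPM in Control animals (lowest, median and highest). The Ethanol animals reached higher and spread wider, with 6 above the highest Control animal and 1 Control animal below the lowest Ethanol animal. The log2 fold change was 0.15 (SE 0.05, edgeR adjusted p = 0.0552), just outside the threshold. Hey1 passed in 8 of 42 other settings, among them DESeq2 (adjusted p = 0.0407), the runs as a block (adjusted p = 0.00818) and 3 surrogate variables (adjusted p = 0.0327). Without Ethanol X4760 alone it had an adjusted p of 0.0188.

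Hey2 is the HEY repressor of arteries and of some progenitors. Hey2 had 4.18, 5.47 and 6.48 CPM in Ethanol animals and 3.72, 5.37 and 6.13 CPM in Control animals (lowest, median and highest). The groups overlapped, with 3 Ethanol animals above the highest Control animal and 3 Control animals below the lowest Ethanol animal. Its log2 fold change was 0.09 (SE 0.08, edgeR adjusted p = 0.505).

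**Figure D3:**
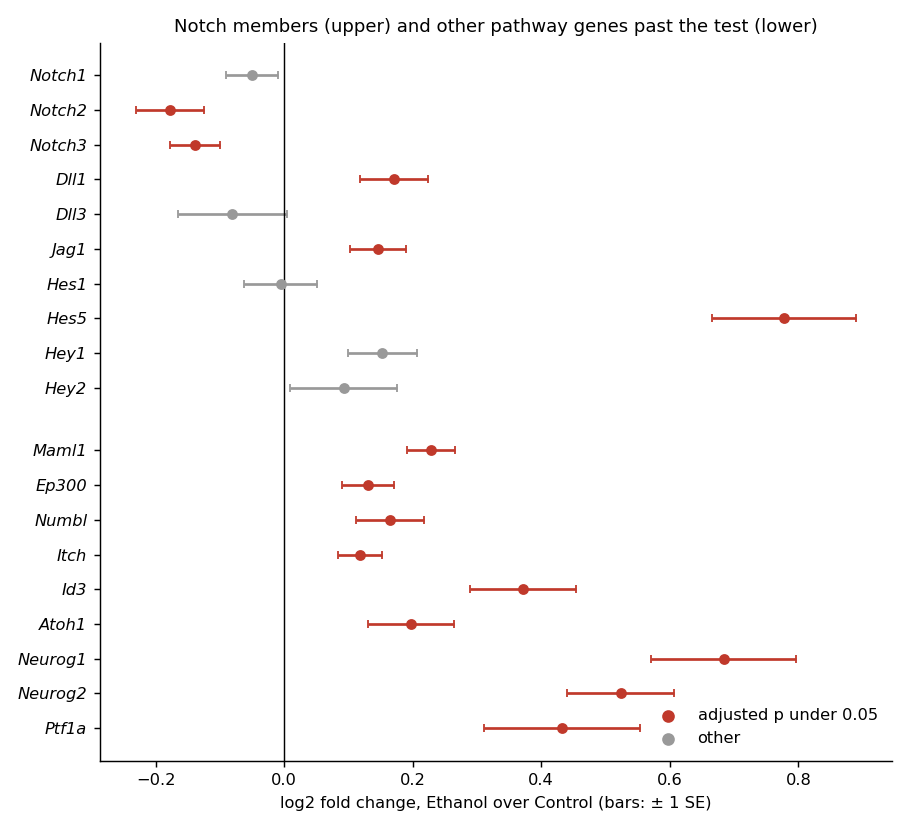
Log2 fold change, Ethanol over Control (x axis), with bars of 1 SE, of the 10 genes (upper block) and of 9 other Notch pathway genes that passed the test (lower block). Red marks an adjusted p under 0.05 and grey the rest. Hes5 at 0.78 lies furthest to the right, Neurog1 at 0.68 and Neurog2 at 0.52 follow, and Notch2 at -0.18 lies furthest to the left.

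The promoters of Hes5 and Hey2 are shown because they are the ones among the 8 genes with a RefSeq promoter entry (GRCm38.p6, 250 bases before to 50 after the start site, all genes except Hes1 and Hey1) in which the RBPJ core TGGGAA was found. Capitals mark the matches, TGGGAA where the match is on the printed strand and TTCCCA where it is on the other.
Hes5, chr4:154960673-154960972, plus strand: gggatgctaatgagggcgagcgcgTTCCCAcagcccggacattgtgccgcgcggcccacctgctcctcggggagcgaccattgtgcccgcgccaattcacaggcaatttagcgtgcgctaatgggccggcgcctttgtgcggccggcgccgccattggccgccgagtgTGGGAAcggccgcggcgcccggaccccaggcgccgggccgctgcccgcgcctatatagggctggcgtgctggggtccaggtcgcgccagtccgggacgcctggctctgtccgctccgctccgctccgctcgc
Hey2, chr10:30842734-30843033, minus strand: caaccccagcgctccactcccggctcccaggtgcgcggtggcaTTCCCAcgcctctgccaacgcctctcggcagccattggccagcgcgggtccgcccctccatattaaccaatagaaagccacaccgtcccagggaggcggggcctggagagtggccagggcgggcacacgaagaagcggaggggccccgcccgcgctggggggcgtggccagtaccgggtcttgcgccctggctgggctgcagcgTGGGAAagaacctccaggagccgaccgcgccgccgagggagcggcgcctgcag
Hes5 held 2 matches, with first bases at -226 from the start site on the opposite strand and at -82 on the printed strand. Hey2 also held 2 matches, and both of them extended to the longer form CGTGGGAA, which contains TGGGAA. The promoters of Notch1, Notch2, Notch3, Dll1 (2 entries), Dll3 and Jag1 held 0 matches on either strand. Of 32851 mouse promoters of the same length, 25.6% held TGGGAA and 0.734% held CGTGGGAA. Hes5, 0.78 higher on the log2 scale, and Hey2, with a log2 fold change of 0.09 that did not pass, thus share the motif, and a match of letters is no evidence of binding.

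Per kilobase of exon (merged exons, GENCODE M21 basic, GRCm38), Hey1 was the most abundant of the 10 transcripts in both groups, at 36.7 ± 4.60 CPM per kb in Ethanol and 33.0 ± 1.96 CPM per kb in Control animals (SD, n = 12 each). In Control animals Notch3 (11.2 CPM per kb), Notch1 (10.5), Hes5 (10.4), Notch2 (7.11), Hes1 (6.18), Dll1 (5.18), Jag1 (3.13), Dll3 (2.72) and Hey2 (2.01) followed. Neighbours in that order overlapped in their Control ranges, except for Hey1 and Notch3, Hes5 and Notch2, and Dll1 and Jag1. In Ethanol animals Hes5 stood behind Hey1 alone at 17.8 CPM per kb, against 10.4 CPM per kb in Control animals, where Notch3 and Notch1 were also above it, and its Ethanol range of 10.3 to 24.9 CPM per kb overlapped that of Notch3, 8.36 to 11.2 CPM per kb. The remaining 8 genes kept their order relative to each other. Summed over the 10 genes, the level was 391.3 to 445.4 CPM in Ethanol and 391.7 to 446.2 CPM in Control animals, so the total did not separate the groups.

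A list of 72 further genes of the pathway placed the 10 genes in context. Of these, 70 were tested, 10 passed as higher and 0 as lower, and 60 did not pass, with a median log2 fold change of 0.01. The share called, 14.3%, was near the 14.9% over all genes tested. At an unadjusted p under 0.05, 17 were higher and 9 lower. The count of lower genes by adjusted p was 0 with RLE scaling, 1 with limma-trend, 1 with limma-voom and 2 with DESeq2. It was 3 with upper-quartile scaling, beside 9 higher, and 7 with 3 surrogate variables, beside 13 higher. Hes2 and Helt, with at most 1 and 2 estimated counts in a library, were not tested.

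Upstream of the nucleus few genes passed. The remaining receptor and canonical ligands, Notch4 (log2 fold change 0.01), Dll4 (0.03) and Jag2 (0.09), did not pass. Of 6 atypical ligands, 4 ubiquitin ligases that ready the ligands, 6 genes that glycosylate or mature the receptor and 9 that cleave it, 0 passed in either direction. At an unadjusted p under 0.05 these 25 genes gave 2 higher and 4 lower. Of 10 regulators and inhibitors, 2 were higher, both of which lower Notch signalling (20% called, against 14.9% over all genes tested). Numbl, a relative of the endocytic inhibitor Numb, had 104, 117 and 136 CPM in Ethanol and 91.8, 105 and 128 CPM in Control animals (log2 fold change 0.16, SE 0.05, adjusted p = 0.0353). Itch, a ubiquitin ligase of the receptor, had 57.2, 67.7 and 71.6 CPM in Ethanol and 54.4, 62.1 and 67.6 CPM in Control animals (log2 fold change 0.12, SE 0.03, adjusted p = 0.0189). For both genes 11 of the 12 Ethanol animals exceeded the Control median. Numbl did not pass in 15 of 42 other settings (highest adjusted p = 0.113) and Itch in 2 of 42.

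In the nuclear complex 2 of 6 genes were higher and 0 lower (33.3% called, against 14.9% over all genes tested). Maml1, the Mastermind coactivator that completes the complex on DNA, had 29.0, 33.1 and 35.5 CPM in Ethanol animals and 25.7, 28.4 and 30.2 CPM in Control animals (lowest, median and highest). The groups nearly separated, with 11 of 12 Ethanol animals above the highest Control animal. Ethanol over Control, the log2 fold change was 0.23 (SE 0.04, adjusted p = 1.56e-04), and Maml1 passed in 42 of 42 other settings. Ep300, the histone acetyltransferase that Mastermind recruits, had 61.3, 82.2 and 85.7 CPM in Ethanol and 70.9, 72.7 and 82.1 CPM in Control animals (log2 fold change 0.13, SE 0.04, adjusted p = 0.0270). Its lowest value of all was in an Ethanol animal, while 8 of 12 Ethanol animals lay above the highest Control animal. Ep300 did not pass in 12 of 42 other settings, among them without the 4 libraries low in Ttr (adjusted p = 0.0834). Rbpj, the DNA-binding partner, had a log2 fold change of 0.02, and Maml2 and Maml3 did not pass.

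Of 10 corepressors 0 passed, and of the 4 other HES and HEY genes tested 0 passed, with Hes6 at a log2 fold change of -0.13 and Heyl at -0.16. At an unadjusted p under 0.05 the corepressors gave 1 higher and 1 lower gene and these HES and HEY genes 2 lower. Of 4 Id genes, which encode partners that disable proneural proteins, Id3 was higher (25% called, against 14.9% over all genes tested). Id3 had 72.6, 85.5 and 119 CPM in Ethanol and 56.8, 69.4 and 82.3 CPM in Control animals (log2 fold change 0.37, SE 0.08, adjusted p = 0.00370), and all 12 Ethanol animals were above the Control median.

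Of 8 proneural transcription factor genes, which HES and HEY proteins repress, 5 were higher and 0 lower, the most of any pathway list. Their median log2 fold change was 0.26, beside -0.01 over all genes tested. The share called was 62.5%, against 14.9% over all genes tested (9.07% higher and 5.8% lower). The list was drawn up with earlier results of these data known, so nothing is read from the difference in shares. At an unadjusted p under 0.05 the proneural genes gave 6 higher and 0 lower. Neurog1, a factor of inhibitory neuron precursors in the cerebellum, had 2.06, 2.60 and 3.47 CPM in Ethanol animals and 1.12, 1.73 and 2.24 CPM in Control animals (lowest, median and highest). The groups nearly separated, with 11 of 12 Ethanol animals above the highest Control animal. On the log2 scale the fold change was 0.68 (SE 0.11, adjusted p = 2.05e-04). Neurog2, its relative in newborn neurons, had 4.75, 7.22 and 9.18 CPM in Ethanol and 4.34, 4.79 and 5.69 CPM in Control animals (log2 fold change 0.52, SE 0.08, adjusted p = 1.39e-04). Of the Ethanol animals 10 lay above the highest Control animal, and both Neurog genes passed in 42 of 42 other settings.

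Ptf1a, which specifies the GABAergic lineage of the ventricular zone, had 2.75, 3.94 and 5.75 CPM in Ethanol and 2.05, 2.87 and 4.29 CPM in Control animals (log2 fold change 0.43, SE 0.12, adjusted p = 0.0156). The groups overlapped, with 4 Ethanol animals above the highest Control animal. Atoh1, which marks granule cell precursors, had 17.8, 26.7 and 31.7 CPM in Ethanol and 19.5, 23.2 and 27.6 CPM in Control animals (log2 fold change 0.20, SE 0.07, adjusted p = 0.0474). Ptf1a passed in 39 and Atoh1 in 11 of 42 other settings, and without the 4 libraries low in Ttr their adjusted p was 0.0635 and 0.102. Markers of granule cell precursors beside Atoh1 went both ways, with Mycn higher and Barhl1 lower among 8. Of these 8 markers, Atoh1 among them, 37.5% were called, against 14.9% over all genes tested. The 8 markers summed to 1710 to 2000 CPM in Ethanol and 1828 to 2144 CPM in Control animals. Of 7 interneuron markers 0 passed (1 higher and 1 lower at an unadjusted p under 0.05), and they summed to 323 to 383 CPM in Ethanol and 322 to 384 CPM in Control animals. The part of these cell types in the proneural differences was not tested.

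**Figure D4:**
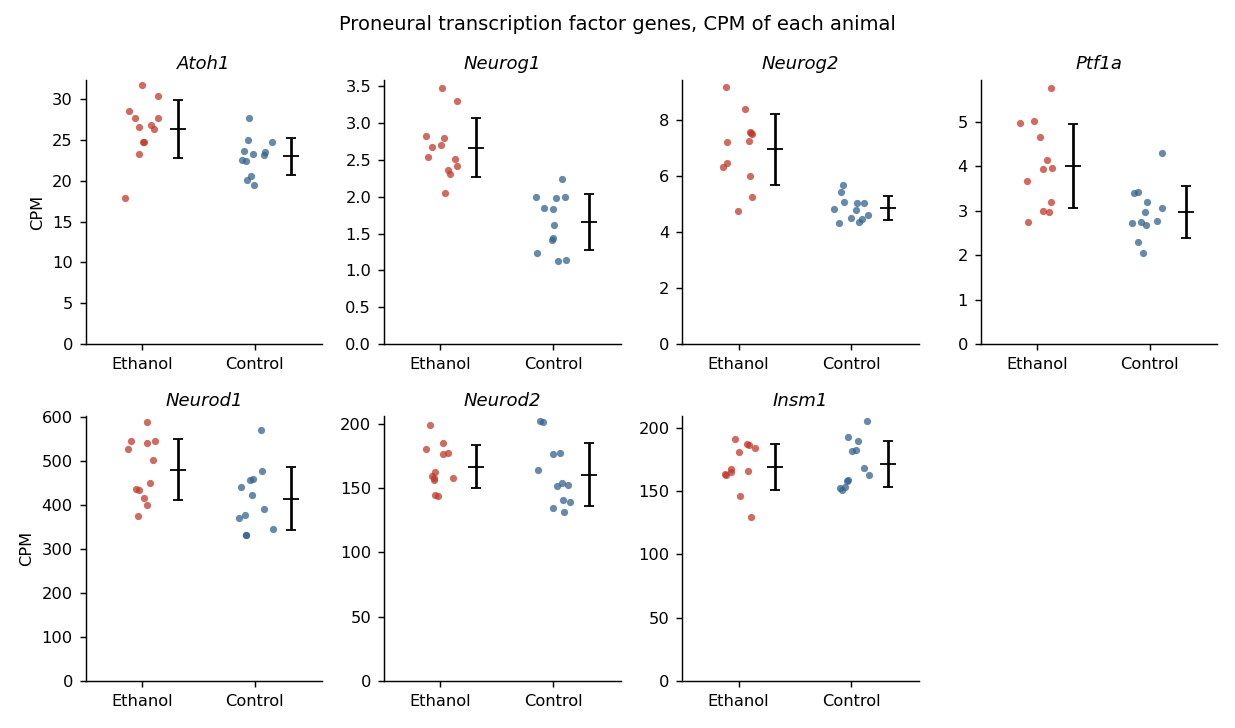
CPM (y axis from 0) of 7 proneural transcription factor genes, 1 panel per gene, with Ethanol animals in red on the left and Control animals in blue on the right. Each point is an animal, and the black mark and bar give the mean and SD of 12 animals. For Neurog1 and Neurog2 most Ethanol points lie above all Control points, whereas Neurod2 and Insm1 cover the same range in both groups.

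How the 10 genes varied from animal to animal within the groups was not used to choose them. Pearson's r was taken between log2 CPM values after removal of the group means, over 24 libraries and 45 gene pairs, with a two-sided permutation test of 100000 resamples within groups and Benjamini-Hochberg adjustment over the 45 pairs. By this test 10 pairs passed, all 10 with a positive r. By Spearman's rho 9 pairs passed, 6 of them the same pairs. The other 3 were Notch1 with Dll1 (rho = 0.598) and Dll3 (rho = 0.58), and Notch3 with Hey1, which was negative (rho = -0.596, adjusted permutation p = 0.031, r = -0.438). Genes of a pair share a library and its depth. Differences of age, sex and litter, which the labels do not give, also remain in these values. The permutations treat the animals of a group as exchangeable. How many pairs of other genes would pass was not examined, so the pairs are not shown to be particular to these genes.

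The strongest pair was Dll1 and Dll3 (r = 0.734, unadjusted permutation p = 1e-04, adjusted permutation p = 0.0045, rho = 0.709, unadjusted permutation p = 0.00029). Without the 2 libraries farthest from the median of Dll1 it had an r of 0.744, and the pair also passed without the 4 libraries low in Ttr (r = 0.73). Dll3 and Hey1 followed (r = 0.703, unadjusted permutation p = 0.00064, adjusted permutation p = 0.0144, rho = 0.684), and r was 0.52 without the 2 farthest libraries, which no longer passed. Notch2 and Hey2 (r = 0.638, unadjusted permutation p = 0.00146, adjusted permutation p = 0.0172, rho = 0.54) had an r of 0.383 without the 4 libraries low in Ttr. Hes5 was correlated with Dll3 (r = 0.654), Dll1 (r = 0.612) and Hey1 (r = 0.588), at adjusted permutation p values of 0.0196, 0.0196 and 0.0423. By rho none of these 3 pairs passed (rho between 0.437 and 0.527). The others that passed by r were Dll1 and Hey1 (0.63), Notch1 and Jag1 (0.547), Dll1 and Jag1 (0.526) and Jag1 and Hey1 (0.522), with rho between 0.511 and 0.67. Hes1 and Notch3 were in none of the 10 pairs. Without the 4 libraries low in Ttr, Dll1 and Dll3 was the only one of the 10 pairs that passed. In that setting r was 0.671 for Dll3 and Hey1, 0.606 for Dll1 and Hey1, 0.616 for Jag1 and Hey1 and 0.644 for Dll3 and Hes5, each with an adjusted permutation p of 0.0632, and between 0.383 and 0.583 for the remaining 5.

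The pairs of Hes5 did not pass without 1 library, which was picked after the data were seen. A library low in both genes of a pair raises r, so leaving it out does not tell how far the pairs rest on it. Without Ethanol X4760, the library of lowest total count and of the lowest Ethanol levels of Dll1, Dll3, Hes5 and Hey1, r was 0.462 for Dll1 and Hes5, 0.461 for Dll3 and Hes5 and 0.421 for Hes5 and Hey1, and none of these passed. Dll1 and Dll3 still passed (r = 0.629). Within the groups, r for Dll1 and Hes5 was 0.824 over the 12 Ethanol and 0.201 over the 12 Control animals, and 5 pairs passed within Ethanol and 0 within Control animals. Of the 5, Dll1 with Dll3, Dll1 with Hes5, Dll3 with Hes5 and Dll3 with Hey1 had a positive r, and Notch2 with Hes5 a negative one (r = -0.744 over the Ethanol animals, adjusted permutation p = 0.0417, and 0.0715 over the Control animals). Differences in r between the groups were not tested. With the means of the 6 runs also removed, 0 pairs passed when values were permuted within the 2 animals of a group and run. This arrangement allows fewer permutations than the main test, though enough for a pair to pass. The lowest adjusted permutation p was 0.0594, for Dll1 and Hes5 (r = 0.783). For Dll3 and Hey1 r was 0.708 (adjusted permutation p = 0.224). Jag1 with Hey1 (0.02) and Jag1 with Dll1 (0.07) were near 0 within runs.

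**Figure D5:**
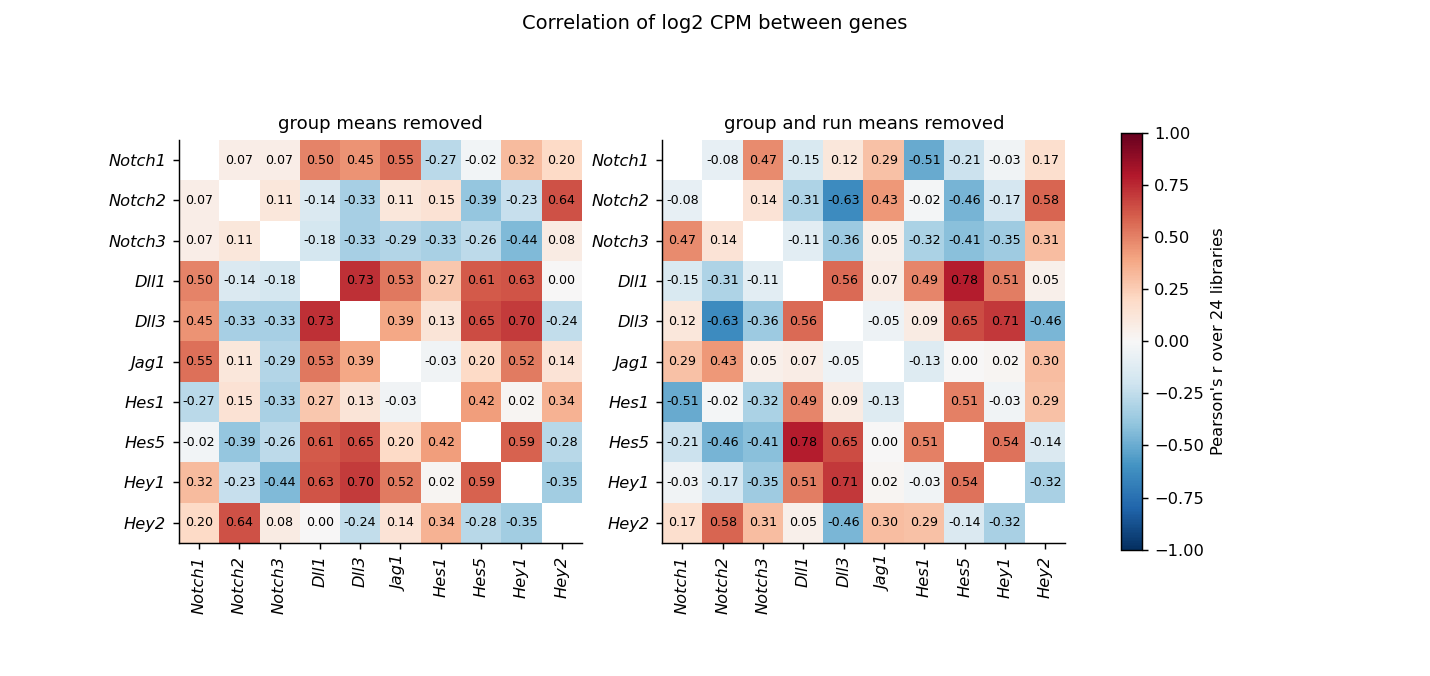
Pearson's r between the log2 CPM values of each pair of the 10 genes over 24 libraries, with the group means removed (left) and with the means of groups and runs removed (right), and red for a positive and blue for a negative r. Dll1, Dll3, Hes5 and Hey1 are positively correlated with each other in both panels, with r between 0.51 and 0.78, whereas the pairs of Jag1 with Dll1 and with Hey1 are near 0 on the right.

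Over all 17735 other genes tested, the genes whose residual log2 CPM followed each of the 10 most closely over the 24 libraries were mostly outside the pathway. Hes5 was followed by Zfp553 (r = 0.90, rho = 0.87), Zfp689 (r = 0.82) and Fzd2 (r = 0.81), of which Zfp553 and Zfp689 were also higher in Ethanol animals (log2 fold changes of 0.25 and 0.23). Hey1 was followed by Max, Ythdf2 and Sf3a1 (r between 0.81 and 0.85), and Hes1 by Hgfac, Gm3696 and Zfp873 (r between 0.67 and 0.76). Dll3 was followed by Tead2 (r = 0.88), Hsd11b2 (r = 0.84) and Atoh1 (r = 0.84), Dll1 by Has3, Dyrk3 and Gsg1l (r between 0.80 and 0.83), and Jag1 by Clpx, Aif1l and Tpm2 (r between 0.76 and 0.80). Notch2 had the closest followers of all 10, Itga8 (r = 0.95), Fgfr2 (r = 0.94) and G630093K05Rik (r = 0.92). Of these Itga8 was lower in Ethanol animals (log2 fold change -0.37, adjusted p = 0.0254) while Fgfr2 did not pass (-0.05). Notch1 was followed by Etv5, Fgfr4 and Grik3 (r between 0.84 and 0.85), Notch3 by Tnrc18, Shank1 and Cacna2d2 (r between 0.81 and 0.88), and Hey2 by Cfap45, Atp2b4 and Efcab12 (r between 0.82 and 0.85). These are the highest of many correlations and are given as a description, with no test.

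Exons of other annotated genes overlap those of 5 of the 10 genes (GENCODE M21, primary assembly annotation), and the strand setting of the counting is not given in the sources used here. Gm20421, antisense to Hes5, reached at most 5.69% of the Hes5 count in a library. The partners of Notch1 (0610009E02Rik and Gm13568, antisense), Notch2 (Gm42820, same strand) and Notch3 (Gm17276, antisense) reached at most 2.7%, 0.25% and 1.3%. A930024N18Rik, antisense to Dll1, is not analysed here. The estimated counts of Notch1, Notch3 and Hes5 were not whole in all 24 libraries, as counts split between overlapping transcripts are. Summing each gene with its partners changed the call of none of Notch1, Notch2, Notch3 and Hes5.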

How the data were processed

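Poly(A) RNA libraries of 24 cerebella were compared, 12 Ethanol against 12 Control by the treatment label. The authors made estimated counts per gene with nf-core/rnaseq 3.4, and the deposited table holds these values unnormalized. STAR, Salmon, limma and the build GRCm39 are listed, without versions, in the submitters' processing notes. Which annotation release and which strand setting were used is not given in the sources used here. Labels and methods name different RNA extraction kits. Of all values 10.92% were further than 0.01 from a whole number, and counts were rounded. Of the rows 20217 were at 0 in every library, and 0 columns lacked a sample. No pair of libraries was alike within sampling noise (lowest chi-square of 276 pairs 4.953 per gene, where noise gives 1).

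After filterByExpr (17736 genes kept) and TMM scaling (factors between 0.9822 and 1.013), the quasi-likelihood test of edgeR 4.0.16 was run under R 4.3.3 (robust glmQLFit, 22 residual degrees of freedom, Benjamini-Hochberg adjusted p under 0.05 over all genes). Standard errors came from the F statistic. The test and the correlations were checked on simulated data with known answers. Correlations and plots used Python 3.11.15, numpy 2.4.6, scipy 1.17.1, pandas 2.3.3 and matplotlib 3.10.9. The members, the pathway and marker lists, the tests and the alternatives were chosen with earlier results of these data known. Named were the 10 genes, every other pathway gene past the test, in each marker list the 2 genes of smallest p in each direction past the test, and for each of the 10 the 3 genes of highest correlation. Further genes named from the lists, such as those that did not pass, were chosen after their values were seen. Some genes of the lists enter the counts but are not reported here by name.

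Alternatives were RLE and upper-quartile scaling, limma-trend (prior count 2) and limma-voom (limma 3.58.1), DESeq2 1.42.0, no filter, 3 surrogate variables (sva 3.50.0), the 6 runs entered as a block, a filter of 1 CPM in 12 libraries, a choroid plexus score as covariate, and leaving out each animal, each run and the 4 libraries low in Ttr. Summing overlapping genes and the correlations without Ethanol X4760 were added after seeing the data. Runs are a grouping by animal number that no source ties to a litter. Comparisons within an age or sex were not made.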

Additional observations from a re-analysis of the deposited data

How the results depend on the processing

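Hes5 and Notch3 passed the threshold in 42 of 42 alternatives, and Notch1, Dll3, Hes1 and Hey2 passed in 0 of 42. Of the 10 genes, 3 were higher in the main result. That number was 1 without the 4 libraries low in Ttr, 1 without run 2 and 1 without run 6, and 1 to 4 when an animal was left out, with the value of 1 without Ethanol X4568, Ethanol X4569 or Control X4762. The 2 lower genes became 1 with no filter on low counts and without run 1, run 3 or run 4, each time by loss of Notch2, and stayed 2 when any animal was left out. The log2 fold change of Hes1 changed sign to 0.0004511 with no filter, 0.00637 with 3 surrogate variables, 0.05937 without run 1 and 0.02679 without run 5, and it ranged over -0.03389 to 0.01581 when an animal was left out, never passing. Of the other pathway genes, 10 were higher, but 6 without the low-Ttr libraries, 6 without run 2, 4 without run 3, 5 without run 4 and 6 to 11 with an animal left out (6 without Ethanol X4568). The 0 lower ones became 3 with upper-quartile scaling, 1 with limma-trend, 1 with limma-voom, 2 with DESeq2, 1 with the stricter filter, 7 with 3 surrogate variables, 1 without run 1, 2, 3 or 5, and 0 to 3 with an animal left out. The number of correlated pairs past the test, 10 in the main result, was 0 with run means removed, 0 within Control animals, 1 without the low-Ttr libraries, 2 without the 2 farthest libraries, 5 within Ethanol animals and 8 without Ethanol X4760. Cutting libraries also cuts the power of each test, and beyond that the cause was not tested. Upper-quartile scaling called 1373 genes higher and 1396 lower, against 1608 and 1028 in the main result. Each litter gave animals to both groups, but the labels give no litter, so animals were not paired by litter. The main test therefore treats the animals as independent. With the 6 runs as a block, 4 of the 10 genes were higher (Hey1 added) and 2 lower, and 13 other pathway genes were higher and 0 lower. Counts were lowest for Dll3, Hey2 and Hes1, at 117 to 391 in a library.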

Other observations

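Markers of other cell types than those described beside the genes above also differed between the groups in part. Of 8 microglia markers, 2 were higher, C1qa among them, and P2ry12 was lower in Ethanol animals, and their summed level was 147 to 250.1 CPM in Ethanol and 143 to 203 CPM in Control animals. Of 9 oligodendrocyte lineage markers Gpr17 was higher. Of 10 Purkinje cell markers, Car8, Pcp4 and Rora were lower, with a summed level of 1603 to 1888 CPM in Ethanol and 1705 to 2070 CPM in Control animals. The shares called were 37.5% of the microglia, 11.1% of the oligodendrocyte lineage and 30% of the Purkinje cell markers, against 14.9% of all genes tested. Of 7 granule neuron markers 0 passed by edgeR (1 higher and 0 lower at an unadjusted p under 0.05), of 10 choroid plexus markers 0 passed (0 in either direction unadjusted), of 5 red blood cell markers 0 passed (0 higher and 1 lower unadjusted), and of the 2 forebrain markers tested 0 passed (0 in either direction unadjusted).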
